A study of Saccharomyces cerevisiae with 21 samples.

Results

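The genes described here are 10 cyclin and G1 control genes of the budding yeast Saccharomyces cerevisiae, chosen by name for their textbook roles. The choice was made with earlier results of these data known. These genes are 10 of the 6571 coding sequences that were quantified, and all 10 passed the filter on low counts in every fit. By role they are the G1 cyclins CLN3 (YAL040C), CLN1 (YMR199W) and CLN2 (YPL256C), the Pho85 cyclin PCL1 (YNL289W), the S-phase cyclins CLB5 (YPR120C) and CLB6 (YGR109C), the mitotic cyclins CLB1 (YGR108W) and CLB2 (YPR119W), and the inhibitors WHI5 (YOR083W) and SIC1 (YLR079W). None of the 10 has an intron in the R64 (sacCer3) annotation.

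In that build the coding sequence of CLN3 is at chrI:65778-67520 (minus strand), CLN1 at chrXIII:662644-664284 (plus), CLN2 at chrXVI:64977-66614 (minus) and PCL1 at chrXIV:87897-88736 (plus). CLB1 at chrVII:703636-705051 (plus) and CLB6 at chrVII:705359-706501 (minus) are neighbours whose ends face each other with 307 bases between them. CLB2 at chrXVI:771653-773128 (plus) and CLB5 at chrXVI:773875-775182 (minus) face each other across 746 bases. WHI5 is at chrXV:479533-480420 (plus) and SIC1 at chrXII:286820-287674 (plus). Each is a single coding exon, and untranslated regions were not counted.

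Cyclins bind and activate cyclin-dependent kinases, chiefly Cdc28, and different cyclins are made at different points of the cycle. In G1, Cln3 with Cdc28 acts against Whi5, a repressor bound to the transcription factor SBF (Swi4 and Swi6), and the freed factor turns on CLN1, CLN2 and PCL1. A related factor, MBF (Mbp1 and Swi6), turns on CLB5, CLB6 and many genes of DNA replication. Sic1 holds the Clb kinases inactive until Cln kinases mark it for destruction, and Clb1 and Clb2 then drive mitosis. Pcl1 pairs with a second kinase, Pho85. The decision to leave G1 is called Start.

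Polyadenylated RNA was sequenced from 7 groups of 3 libraries. The groups were a strain with a humanized yeast U1C at high OD (an optical density, OD600, near 8) and its wildtype at high OD (near 5), the Luc7 triple mutant at low OD, the humanized strain at low OD (near 0.4), the wildtype at low OD (near 0.4), and a Luc7 degron strain plus IAA (beta-estradiol and IAA for 6 hours) and minus IAA. U1C (encoded by YHC1) and Luc7 are proteins of the U1 snRNP, which recognises 5′ splice sites. The high-OD libraries came from an earlier experiment that was repeated at low OD because the first cultures were past log phase. The labels give all strains YPD or dropout medium without saying which, do not give the Luc7 mutations, the OD of the triple mutant beyond "low" or that of the degron cultures, and do not say whether minus IAA cells received beta-estradiol or whether replicates were separate cultures. The p-values therefore measure the spread between libraries.

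Libraries held 28.5 to 46.8 M assigned reads, and the 10 genes took 0.0628% to 0.133% of them. The lowest read number for any of the 10 genes was 88, for CLB6 in wildtype at low OD replicate 2. The LUC7 transcript was on average 119 normalized CPM (counts per M, TMM scaled over all 21 libraries) in degron cells plus IAA and 96.8 minus IAA, which says nothing about the protein that the degron removes. YHC1 averaged 30.7 normalized CPM in humanized and 37.6 in wildtype cells at low OD. The marker gene URA3 had 0 reads in all triple mutant libraries and 13978 or more in every wildtype and humanized library, whereas LEU2 had 0 reads in wildtype and humanized cells and 5101 or more elsewhere. The triple mutant and the wildtype thus differ in strain markers too, and the mutations, the markers and any difference in medium cannot be told apart. In degron cells, plus IAA replicate 1 held 771 URA3 reads and minus IAA replicate 1 held 101, against 0 to 20 in the other 4 libraries. All 9 calls among the 10 genes in that strain remained without either library.

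The stretches upstream of the coding sequence that hold SBF or MBF motifs show how the G1 genes differ in sequence. The SBF motif was written CNCGAAA and the MBF motif ACGCGT, both strands were searched over 700 bases before the start codon, and capitals mark the matches. The 3 sequences below were read from RefSeq (R64, sacCer3) in the direction of the gene: CLN2 at chrXVI:67112-67261 (minus strand), 647 to 498 bases upstream, PCL1 at chrXIV:87528-87677 (plus strand), 369 to 220 bases upstream, and CLB6 at chrVII:706814-706963 (minus strand), 462 to 313 bases upstream.
CLN2: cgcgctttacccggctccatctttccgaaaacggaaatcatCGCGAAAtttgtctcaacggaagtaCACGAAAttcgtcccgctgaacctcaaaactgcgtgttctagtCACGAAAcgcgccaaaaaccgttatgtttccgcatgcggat
PCL1: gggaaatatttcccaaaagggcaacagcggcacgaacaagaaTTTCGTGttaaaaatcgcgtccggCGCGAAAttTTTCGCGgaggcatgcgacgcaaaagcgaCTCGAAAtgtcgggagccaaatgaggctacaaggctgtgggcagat
CLB6: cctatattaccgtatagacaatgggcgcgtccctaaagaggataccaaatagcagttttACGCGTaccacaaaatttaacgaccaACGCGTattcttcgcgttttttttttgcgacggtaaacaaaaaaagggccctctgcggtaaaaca
PCL1 had 4 matches to the SBF motif (2 of them on the reverse strand, written TTTCGNG), CLN2 had 3, CLN1 had 2, and CLB1 and SIC1 had 1 each. At least 1 SBF match occurred in the 700-base windows of 27.5% of 5892 genes, so a single match is common. CLB6 had 2 MBF matches and CLN1 had 1, against 7.01% of windows with any. The forkhead motif GTAAACA, in 13.6% of windows, matched once each in CLB6, CLB1 and WHI5. CLN3, CLB5 and CLB2 matched none of the 3 motifs in this window. A match is a run of letters and not a measured binding site.

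Levels of different genes were compared in TPM, which divide a gene's reads by its length. PCL1 was highest of the 10 genes in degron cells plus IAA (304 ± 19.8 TPM, SD, n = 3) and in wildtype at low OD (86 ± 2.33). CLB1 was highest in both high-OD groups, at 182 ± 5.93 TPM in humanized and 120 ± 18.2 in wildtype cells (SD, n = 3 each), although in wildtype its libraries overlapped those of SIC1 (100.2 ± 6.34). CLB6 was lowest in all 7 groups, between 2.37 and 9.25 TPM on average, and WHI5 or CLB5 came next above it in all of them. For 1 gene across groups, normalized CPM were used. The highest group mean was 5.08 times the lowest for CLB1, 4.22 times for PCL1, 2.49 times for CLB6, 2.48 times for WHI5 and 1.38 times for CLN2, the lowest ratio of the 10. For CLB1 the order was humanized high OD, wildtype high OD, degron minus IAA, degron plus IAA, triple mutant, humanized low OD and wildtype low OD, and only the last pair overlapped. For PCL1 degron cells plus IAA and then wildtype at low OD stood clear, and the other 5 groups overlapped with their neighbours. For CLN2 only wildtype at high OD stood clear of the group below it, humanized cells at high OD.

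**Figure D1:**
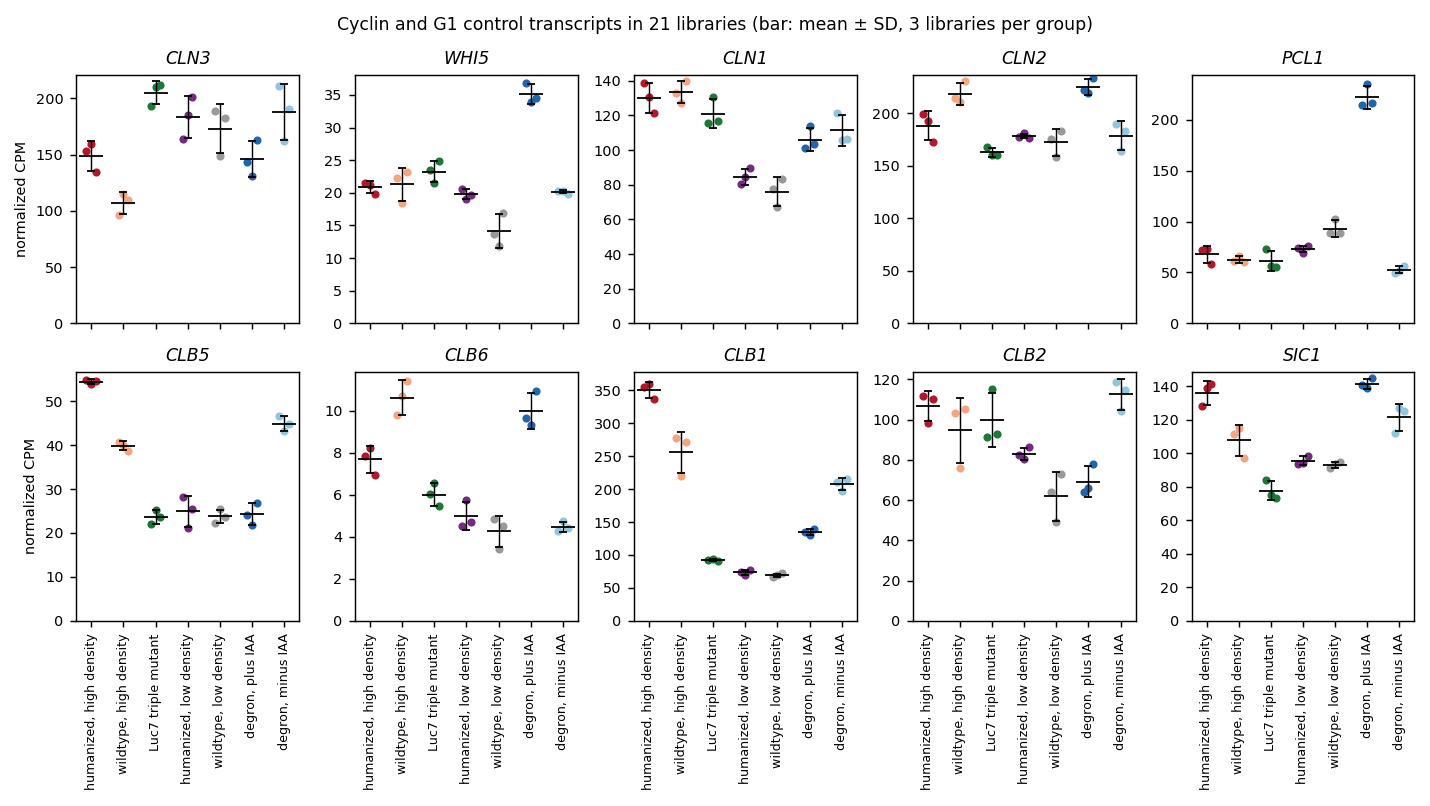
Normalized CPM (y axes, from 0) of the 10 genes in all 21 libraries, with groups along the x axis, a point per library, and bars for mean ± SD (n = 3). PCL1 stands at 215 to 235 in degron cells plus IAA and between 49.9 and 102 in every other library, and CLB1 is above 220 in the high-OD groups only.

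In the Luc7 degron strain, plus IAA against minus IAA, 9 of the 10 genes changed, and the G1 and S-phase genes did not change in the same direction. PCL1, CLB6, WHI5, CLN2 and SIC1 rose, CLB5, CLB2, CLB1 and CLN3 fell, and CLN1 did not pass the test. Of 6156 genes tested, 34% were called higher and 34.3% lower, so a high share of calls is common to the transcriptome. The cultures were bulk samples, so a change in the share of cells at a stage of the cycle and a change in RNA per cell cannot be told apart. No group of cells without the degron was described as treated with IAA. Loss of Luc7, the added chemicals, treatment time and any difference in culture density therefore cannot be told apart in this comparison either. The median size of change, in absolute log2, was 0.67 for the 10 genes and 0.37 for all genes tested.

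PCL1 had 215, 235 and 217 normalized CPM in cells plus IAA, against 49.9, 51.7 and 56.4 minus IAA. The groups were far apart, and the change was a 4.21-fold rise (log2 2.07 ± 0.06 SE, edgeR adjusted p = 2.02e-08). CLN2, also a target of SBF, had 223, 219 and 233 CPM plus IAA, against 190, 164 and 183 minus IAA. Its libraries did not overlap either, but the rise was 1.26-fold (log2 0.33 ± 0.06, adjusted p = 0.000904). CLN1, the close relative of CLN2, had 101, 114 and 103 CPM plus IAA, against 122, 106 and 106 minus IAA, and its groups overlapped. The interval of its log2 fold change ran from -0.23 to 0.08 (adjusted p = 0.382).

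Of the upstream regulators of Start, WHI5 rose and CLN3 fell in edgeR, but neither call held in every setting. WHI5 had 36.9, 33.9 and 34.5 CPM in cells plus IAA, against 20.2, 20.3 and 19.9 minus IAA, with no overlap, a log2 rise of 0.80 ± 0.07 (adjusted p = 4.38e-06). WHI5 has a GC content of 54.1%, higher than 99.7% of 5895 genes, and with an offset for length and GC content its log2 change was 0.10 (adjusted p = 0.247). The other 8 called genes stayed past the threshold with that offset. CLN3 had 144, 131 and 163 CPM plus IAA, against 211, 162 and 190 minus IAA. The highest plus IAA library lay just above the lowest minus IAA library, and the log2 change was -0.37 ± 0.10 (adjusted p = 0.00868). On TPM, where the median of all genes lay at 0.28, CLN3 was at -0.10 (limma, adjusted p = 0.512) and CLN1 at 0.20 (adjusted p = 0.047).

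The S-phase pair split in opposite directions. CLB6 had 9.67, 9.31 and 11 CPM in cells plus IAA, against 4.27, 4.73 and 4.41 minus IAA, a 2.23-fold rise (log2 1.16 ± 0.13, adjusted p = 2.49e-05). CLB5 had 24.2, 21.8 and 26.7 CPM plus IAA, against 46.6, 43.3 and 44.9 minus IAA, a log2 change of -0.89 ± 0.08 (adjusted p = 7.01e-06). Neither gene's groups overlapped. Of the mitotic pair, CLB1 had 134, 130 and 139 CPM plus IAA, against 210, 198 and 216 minus IAA (log2 -0.63 ± 0.05, adjusted p = 3.61e-06). CLB2 had 63.8, 66 and 77.8 CPM plus IAA, against 119, 104 and 115 minus IAA (log2 -0.70 ± 0.08, adjusted p = 3.08e-05). Both mitotic cyclins were thus lower in every plus IAA library than in any minus IAA library. The inhibitor SIC1 had 141, 139 and 145 CPM plus IAA, against 112, 127 and 125 minus IAA, a small rise without overlap (log2 0.22 ± 0.06, adjusted p = 0.00871). The sources used here do not give the strand setting of the counting, so for the facing pairs CLB6 with CLB1 and CLB5 with CLB2 any RNA that runs on into the neighbour cannot be told apart.

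**Figure D2:**
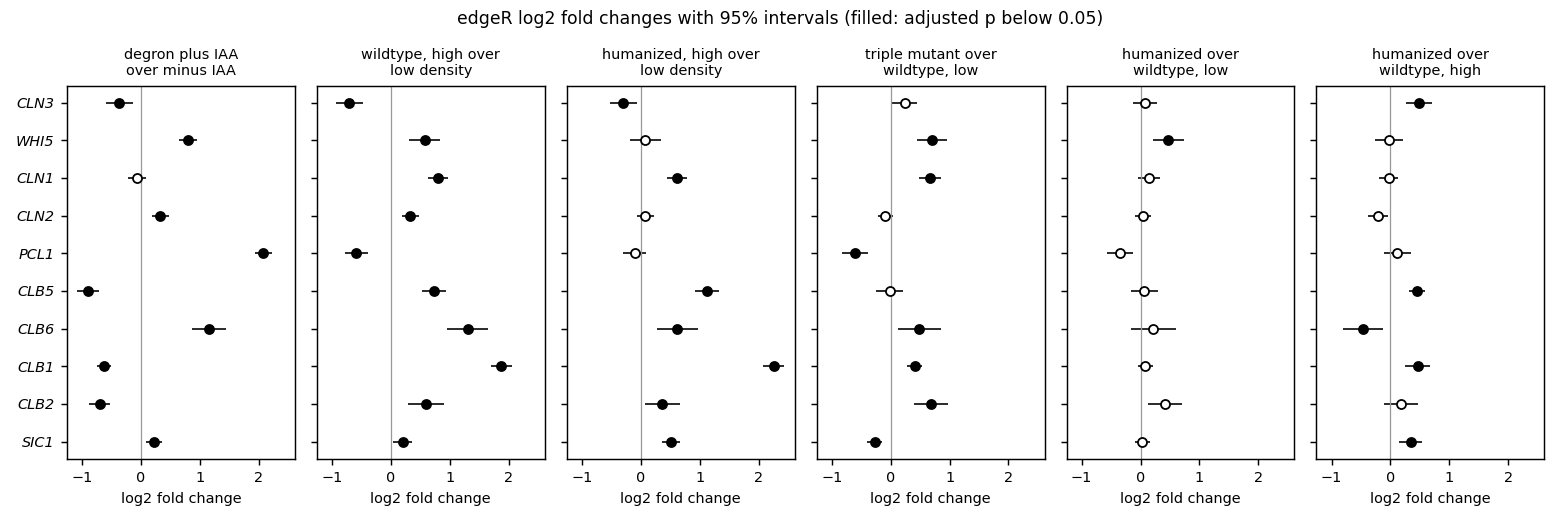
Log2 fold changes (x axes, edgeR, first-named group over the second) of the 10 genes in 6 comparisons, with 95% intervals; filled points passed an adjusted p of 0.05. In degron cells PCL1 lies at 2.07 and CLB5 at -0.89, and in humanized against wildtype cells at low OD 1 of 10 points is filled.

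**Figure D3:**
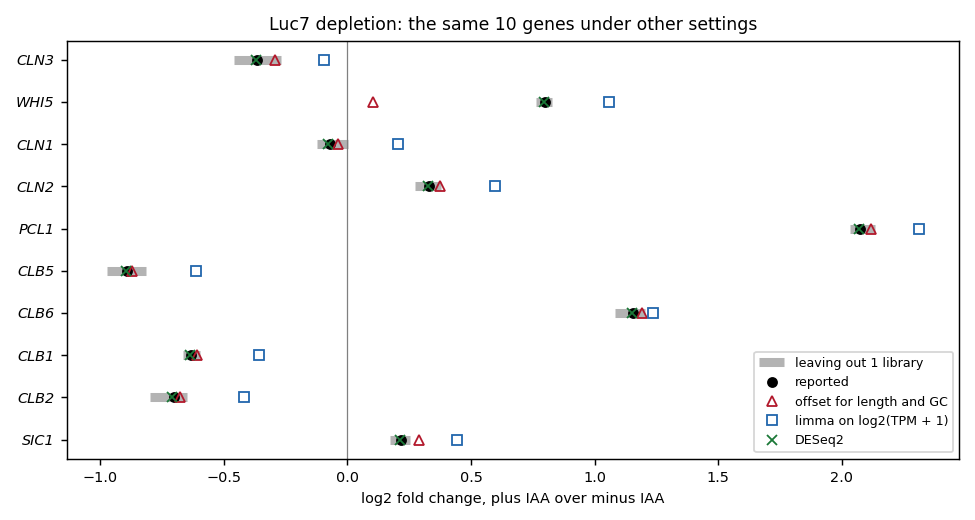
Log2 fold changes (x axis, plus IAA over minus IAA) of the 10 genes as reported and under 3 other settings, with grey bars for the range when each of 6 libraries was left out in turn. WHI5 moves to 0.10 with the offset for length and GC content, and the limma values on log2(TPM + 1) lie to the right of the reported ones for all 10 genes.

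Genes around the 10 in the pathway were counted from 6 lists with 69 genes. In degron cells 34% of all genes tested were called higher and 34.3% lower, the share to set beside each list. Of 11 regulators of Start, 4 rose and 6 fell in cells plus IAA. XBP1, a stress-induced repressor known to lower G1 cyclin genes, was at 105 normalized CPM plus IAA and 27.5 minus IAA (log2 1.93 ± 0.11). YOX1, a homeodomain repressor of early cell cycle genes, rose by 0.69 (log2). SWI4, the DNA-binding subunit of SBF, was at 32.3 CPM plus IAA and 45.3 minus IAA (log2 -0.49 ± 0.10), and NRM1, the co-repressor of MBF, was at log2 -0.61. Of 14 genes for kinases and their regulators, 4 rose and 6 fell. SRL3, the relative of WHI5, was at 57.9 CPM plus IAA and 9.14 minus IAA (log2 2.66 ± 0.17), and CDC53, the cullin of the SCF ligase that destroys Sic1, was at log2 0.89. FAR1, the Cln kinase inhibitor of the pheromone response, was at 99.9 CPM plus IAA and 293 minus IAA (log2 -1.55 ± 0.06).

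Of 15 S-phase genes of the MBF type, 2 rose and 8 fell in cells plus IAA. TOS4 was at log2 -0.96, the mismatch repair gene MSH6 at -0.71 and the thymidylate synthase gene CDC21 at -0.55, whereas RFA1, a subunit of the single-strand DNA binding complex RPA, was at 0.92. Of 13 genes of the CLB2 cluster, expressed in G2 and mitosis, 3 rose and 5 fell. Among those that fell were CDC20, the activator of the anaphase-promoting complex (56.2 CPM plus IAA and 116 minus IAA, log2 -1.05), and the polo kinase gene CDC5 (-0.57). Of 5 G2/M regulators 2 rose and 3 fell, with the forkhead gene FKH2 at -0.84, and with all 7 groups in 1 fit 0 rose and 3 fell. Of 11 other cyclins, 1 rose and 5 fell. The 1 that rose was the Pho85 cyclin PCL5 (309 CPM plus IAA and 117 minus IAA, log2 1.40 ± 0.06). The list medians ran from -0.30 for the MBF targets to -0.01 for the CLB2 cluster, beside 0.01 for all genes. The balance of these calls turned over in limma on TPM, where the median of all genes lay at 0.28. There the 6 lists together held 30 genes higher and 11 lower, against 16 and 33 in edgeR. They held 15 and 33 in DESeq2, 15 and 34 with its size factors in edgeR, and 18 and 33 with the offset for length and GC content. Calls over all genes in limma and these other settings were not counted. The limma counts were 5 higher and 1 lower for Start regulators, 8 and 2 for kinases and their regulators, 5 and 4 for MBF targets, 7 and 2 for the CLB2 cluster, 2 and 1 for G2/M regulators, and 3 and 1 for other cyclins.

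In the Luc7 triple mutant against wildtype at low OD, 5 of the 10 genes rose and 2 fell, where 28.3% of 6107 genes were called higher and 26.5% lower. The genes that rose were WHI5, CLB2, CLN1, CLB6 and CLB1, and PCL1 and SIC1 fell. The median log2 fold change of the 10 genes was 0.32, beside 0.00 for all genes.

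CLN1 had 116, 131 and 117 normalized CPM in the triple mutant, against 77.4, 66.9 and 83.3 in wildtype, with no overlap (log2 0.67 ± 0.08, adjusted p = 0.000116). CLN2 had 168, 160 and 160 CPM in the triple mutant, against 175, 158 and 183 in wildtype. The CLN2 groups overlapped, and the interval of its log2 change was -0.22 to 0.04. It was called lower without wildtype replicate 2 (adjusted p = 0.0102) and with the offset for length and GC content (0.0143). PCL1 had 72.7, 56.8 and 55 CPM in the triple mutant, against 88.3, 102 and 88.6 in wildtype, lower in each mutant library (log2 -0.61 ± 0.10, adjusted p = 0.000628). WHI5 had 23.5, 21.5 and 24.8 CPM in the triple mutant, against 13.7, 11.9 and 16.9 in wildtype (log2 0.70 ± 0.12, adjusted p = 0.000618). CLN3 had 194, 210 and 212 CPM in the triple mutant, against 189, 148 and 182 in wildtype, without overlap but with an adjusted p of 0.0525 (log2 0.24 ± 0.09), while DESeq2 (0.0398) and limma on TPM (0.047) called it. Every triple mutant library was thus above every wildtype library for both genes, and the edgeR test called WHI5.

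Among the B-type cyclins, CLB2 had 91.4, 115 and 92.9 CPM in the triple mutant, against 63.8, 48.9 and 73.1 in wildtype (log2 0.68 ± 0.13, adjusted p = 0.00153). CLB1 had 91.9, 94.4 and 90.4 CPM in the triple mutant, against 66.5, 69 and 71.9 in wildtype (log2 0.41 ± 0.06, adjusted p = 0.000218). Both mitotic cyclins were higher in each mutant library. CLB6 had 6.04, 6.54 and 5.46 CPM in the triple mutant, against 4.84, 3.42 and 4.52 in wildtype (log2 0.49 ± 0.17, adjusted p = 0.0286). That call did not stand without triple mutant replicate 1 (adjusted p = 0.0633) or 2 (0.101) or without wildtype replicate 2 (0.098), nor with the replicate number as a block (0.0574). CLB5 had 21.9, 25.3 and 23.6 CPM in the triple mutant, against 22.4, 25.4 and 23.5 in wildtype, overlapping groups with an interval of -0.24 to 0.21. SIC1 had 84, 75.2 and 73.3 CPM in the triple mutant, against 90.9, 93.3 and 94.8 in wildtype (log2 -0.27 ± 0.06, adjusted p = 0.00285), lower in each mutant library. In limma on TPM, where the median of all genes lay at 0.13, SIC1 was at -0.13 (adjusted p = 0.152).

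Against wildtype, 28.3% of all genes tested were called higher in the triple mutant and 26.5% lower. In the wider lists, 11 of 13 CLB2 cluster genes rose in the triple mutant against wildtype (median 0.39). They included the kinesin gene KIP2 (log2 0.60), ALK1 (0.59), the deacetylase gene HST3 (0.53) and SWI5 (0.49), the activator of SIC1. Of 11 Start regulators 8 rose, with XBP1 at 46.2 CPM in mutant and 22.9 in wildtype cells and SWI4 at 53.5 CPM in mutant and 35.6 in wildtype cells (log2 0.58 ± 0.10). That count was 5 without wildtype replicate 2 and with the offset for length and GC content. Of 5 G2/M regulators 4 rose, with FKH2 at 0.59. Of 15 MBF targets 2 rose and 6 fell, with the sliding clamp gene POL30 at -0.48 and the licensing factor gene CDC6 at -0.33, but limma on TPM called 2 higher and 1 lower. Other cyclins gave 6 of 11 higher and 2 lower, with CLG1 at 0.66 and PCL9 at -0.47. The 6 became 2 without triple mutant replicate 1, and 3 without triple mutant replicate 3 or wildtype replicate 1 or 2. Kinases and their regulators gave 3 of 14 higher and 2 lower, with SRL3 at -0.35. For the other settings named here, calls over all genes were not counted.

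Against the humanized strain at low OD, the triple mutant had 2 of the 10 genes higher and 1 lower, where 17.8% of genes were called higher and 16.1% lower. CLN1 had 80.3, 84.4 and 89.4 CPM in the humanized strain, all below the triple mutant (log2 0.52 ± 0.08, adjusted p = 0.000891). CLB1 was at log2 0.33 ± 0.06 (adjusted p = 0.00132), and SIC1 at -0.30 ± 0.06 (adjusted p = 0.0027). With only these 2 groups in the fit, 7 of the 10 genes were called, the others being WHI5, CLN2, PCL1 and CLB2, and 6 were called without wildtype replicate 2. The shares of all genes called in those fits were not counted. The 6 wider lists held 35 and 34 calls in them, against 30 in the reported fit. This comparison uses the same triple mutant libraries as the one against wildtype.

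In the humanized strain against wildtype at low OD, 1 of the 10 genes rose in the edgeR test, where 2.67% of genes were called higher and 3.88% lower. WHI5 had 20.6, 19.1 and 19.7 normalized CPM in humanized cells, against 13.7, 11.9 and 16.9 in wildtype (log2 0.47 ± 0.12, adjusted p = 0.0404). No humanized library overlapped the wildtype, but leaving out 8 of the 9 libraries of the fit, 1 at a time, ended the call (adjusted p 0.0514 to 0.126, all but wildtype replicate 3). Without wildtype replicate 3, PCL1 and CLB2 were called as well, and PCL1 was called without triple mutant replicate 1 (adjusted p = 0.0195). The WHI5 call also ended with only the groups compared in the fit (0.0844) and in limma on TPM (0.0507). PCL1 had 73.9, 69.4 and 75.9 CPM in humanized cells, against 88.3, 102 and 88.6 in wildtype, with no overlap and an adjusted p of 0.0577 (log2 -0.36 ± 0.10). CLB2 had 82.3, 80.2 and 86.4 CPM in humanized cells, against 63.8, 48.9 and 73.1 in wildtype, again with no overlap (log2 0.41 ± 0.13, adjusted p = 0.0795). At an unadjusted p below 0.05, 2 genes were higher and 1, PCL1, was lower, and DESeq2 called PCL1 (adjusted p = 0.012) and CLB2 (0.0227) besides WHI5. The shares of all genes by those 2 measures were not counted.

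The remaining 7 genes overlapped between humanized and wildtype cells at low OD, with log2 changes from 0.03 for SIC1 to 0.22 for CLB6. How many of all genes overlapped was not counted. The 95% interval was -0.10 to 0.16 for SIC1, -0.09 to 0.17 for CLN2 and -0.05 to 0.21 for CLB1, and it was widest for CLB6, from -0.16 to 0.59. Of all genes tested, 2.67% were called higher and 3.88% lower. In the wider lists 1 of 69 genes was called, KIP2, which was higher (log2 0.26, adjusted p = 0.0355). These counts rested on single libraries: without wildtype replicate 3 the lists held 30 calls, 8 of them in the CLB2 cluster, and DESeq2 made 12. How many of all genes were called in those fits was not counted, so the 30 and 12 have no background. The KIP2 call was the only 1 in the CLB2 cluster, and that list held 0 without humanized replicate 2 or 3, triple mutant replicate 3 or wildtype replicate 1 or 2, with the replicate block, with the offset for length and GC content, with only the groups compared, with all 7 groups in 1 fit and in limma on TPM.

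Between densities most of the 10 genes changed. In wildtype, high against low OD, all 10 genes were called, 8 higher and 2 lower, where 20.9% of 6150 genes were called higher and 22.7% lower. In the humanized strain, high against low OD, 6 were higher and 1 lower, where 27.7% of genes were called higher and 26.7% lower. The median log2 fold change of the 10 genes was 0.59 in wildtype and 0.44 in the humanized strain, beside 0.01 and 0.02 for all genes. Density and experiment cannot be told apart in either strain.

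CLB1 had 356, 360 and 337 normalized CPM at high OD in humanized cells, against 74, 68.8 and 77.6 at low OD, a 4.79-fold rise (log2 2.26 ± 0.08, adjusted p = 2.29e-09). In wildtype it had 277, 220 and 271 CPM at high OD, against 66.5, 69 and 71.9 at low OD, a 3.67-fold rise (log2 1.87 ± 0.08, adjusted p = 1.23e-08). Its relative CLB2 had 103, 76 and 105 CPM at high OD in wildtype, against 63.8, 48.9 and 73.1 at low OD (log2 0.60 ± 0.14, adjusted p = 0.00401). In humanized cells CLB2 was at log2 0.37 ± 0.14 (adjusted p = 0.0376), a call lost when any 1 of 6 libraries was left out, such as humanized high-OD replicate 1 (adjusted p = 0.107). CLB5 had 54.9, 53.9 and 54.6 CPM at high OD in humanized cells, against 28.3, 21.1 and 25.4 at low OD (log2 1.13 ± 0.09). In wildtype CLB5 had 40.7, 40.1 and 38.7 CPM at high OD, against 22.4, 25.4 and 23.5 at low OD (log2 0.73 ± 0.09). CLB6 was 2.47-fold higher at high OD in wildtype (log2 1.30 ± 0.16) and 1.54-fold higher in humanized cells (0.62 ± 0.16). CLB1, CLB2, CLB5 and CLB6 were thus called higher at high OD in both strains, though the CLB2 call in humanized cells rested on single libraries.

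Among the G1 genes, CLN1 was higher at high OD in wildtype (log2 0.80 ± 0.08) and in humanized cells (0.62 ± 0.08). CLN2 was at 0.33 ± 0.07 in wildtype (adjusted p = 0.00164) and at 0.08 in humanized cells, with an interval of -0.06 to 0.22. CLN3 had 96.7, 115 and 110 CPM at high OD in wildtype, against 189, 148 and 182 at low OD, a clear fall (log2 -0.71 ± 0.11, adjusted p = 0.000239). In humanized cells CLN3 had 153, 160 and 134 CPM at high OD, against 164, 185 and 201 at low OD (log2 -0.30 ± 0.11, adjusted p = 0.0319). That call was lost without humanized low-OD replicate 2 or 3 or humanized high-OD replicate 1 or 3 (adjusted p 0.0565 to 0.133), and on TPM, where the median of all genes lay at 0.23, it was at -0.03. PCL1 fell at high OD in wildtype (log2 -0.59 ± 0.09, adjusted p = 0.000318) and was at -0.11 in humanized cells, with an interval of -0.31 to 0.10. WHI5 was at 0.57 ± 0.12 in wildtype (adjusted p = 0.0026) and at 0.08 in humanized cells, with an interval of -0.18 to 0.34. SIC1 rose in humanized cells (0.52 ± 0.07, adjusted p = 6.88e-05). In wildtype it was at 0.20 ± 0.07 (adjusted p = 0.0389), a call lost when any 1 of 8 of the 12 libraries of the fit was left out (adjusted p up to 0.118).

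The wider lists at high against low OD gave 12 of 15 MBF targets higher in wildtype, and 11 higher and 1 lower in humanized cells. The shares over all genes were 20.9% higher and 22.7% lower in wildtype, and 27.7% and 26.7% in humanized cells. RNR1, the large subunit of ribonucleotide reductase, was at log2 0.73 in wildtype and 0.95 in humanized cells, and the cohesin gene MCD1 was at 0.75 and 0.80. CLB2 cluster genes were higher for 11 of 13 in wildtype and 8 of 13 in humanized cells. Start regulators gave 9 of 11 higher and 1 lower in wildtype and 8 higher and 1 lower in humanized cells, with NRM1 at 1.14 and 1.29. SRL3 was at 13.4 CPM at high and 90.5 at low OD in wildtype (log2 -2.77 ± 0.17), and at 10.1 CPM at high and 81.3 at low OD in humanized cells (-3.00 ± 0.18). SRL3 and WHI5, the related inhibitors, changed in opposite directions with density in wildtype.

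**Figure D4:**
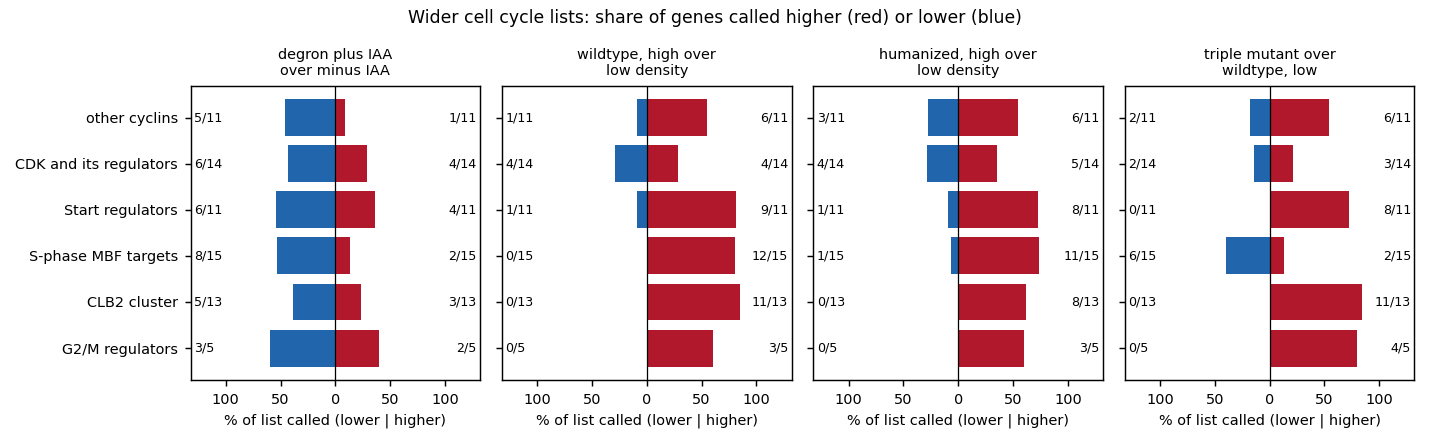
Percent of each of 6 wider lists called higher (right) or lower (left) in 4 comparisons, with the numbers of genes at the edges. In wildtype at high OD 12 of 15 MBF targets and 11 of 13 CLB2 cluster genes were higher, and in degron cells plus IAA 8 of 15 MBF targets were lower in edgeR (4 in limma on TPM).

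In the humanized strain against wildtype at high OD, 4 of the 10 genes rose and 1 fell, where 16% of 6119 genes were called higher and 12.6% lower. The cultures also differed in OD600 (near 8 in humanized and near 5 in wildtype), so humanization and density cannot be told apart here. CLB5 had 54.9, 53.9 and 54.6 CPM in humanized cells, against 40.7, 40.1 and 38.7 in wildtype (log2 0.46 ± 0.06, adjusted p = 0.00213). CLN3 had 153, 160 and 134 CPM in humanized cells, against 96.7, 115 and 110 in wildtype (log2 0.48 ± 0.09, adjusted p = 0.0102). Both were higher in each humanized library. CLB1 was at 0.46 ± 0.09 (adjusted p = 0.011), lost without humanized replicate 1 (0.0612) or 2 (0.0659). SIC1 was at 0.34 ± 0.09 (adjusted p = 0.0248), lost without humanized replicate 2 (0.0889) or 3 (0.0578), without wildtype replicate 1 (0.0792) and with the replicate number as a block (0.0541). CLB6 had 7.85, 8.24 and 6.95 CPM in humanized cells, against 9.78, 10.7 and 11.4 in wildtype (log2 -0.46 ± 0.14, adjusted p = 0.0462), a call lost without any 1 of the 6 libraries (adjusted p 0.0724 to 0.121) and with the block (0.115). CLB5 was thus higher in each humanized library and CLB6 lower.

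CLN2 had 199, 192 and 173 CPM in humanized cells at high OD, against 215, 211 and 230 in wildtype, without overlap (log2 -0.21 ± 0.07, adjusted p = 0.0613). It was called lower in DESeq2 (adjusted p = 0.0229), with all 7 groups in 1 fit (0.0118) and with the offset for length and GC content (0.00149). CLN1, WHI5, PCL1 and CLB2 overlapped, with log2 changes of -0.03, -0.03, 0.12 and 0.18. In the wider lists PCL5 was at 99.2 CPM in humanized and 334 in wildtype cells (log2 -1.75 ± 0.07), PHO85, the kinase that Pcl1 and Pcl5 bind, at 39.1 and 68.1 (-0.80 ± 0.11), and FAR1 at 378 and 249 (0.61 ± 0.08). Over all genes, 16% were called higher and 12.6% lower. Of 13 CLB2 cluster genes 3 fell, with the myosin gene MYO1 at -0.51, while 5 of 15 MBF targets rose, with RNR1 at 0.36. The 3 became 0 or 1 without any 1 of the 6 libraries other than wildtype replicate 2, 1 with the replicate block, 5 with the offset for length and GC content, and 0 in limma on TPM, which called 1 higher. The 5 became 1 without humanized replicate 1 or 2 or wildtype replicate 1, and 2 with the block. For these other settings, calls over all genes were not counted.

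The effect of humanization was compared between densities with an interaction term, the effect at high OD minus that at low OD. The high-OD cultures also differed in OD600 (near 8 in humanized and near 5 in wildtype), which cannot be told apart from this term. The term was called positive for 3 of the 10 genes, where it was called positive for 9.84% of all genes and negative for 8.02%. The 3 genes were PCL1 (log2 0.48 ± 0.13, adjusted p = 0.0244), CLB1 (0.38 ± 0.11, adjusted p = 0.0329) and SIC1 (0.32 ± 0.10, adjusted p = 0.0462). The number of calls ran from 0 to 5 as single libraries were left out, with 0 without humanized replicate 2 at low OD or at high OD. CLB6 had the largest interaction estimate in size, -0.68 ± 0.23 (adjusted p = 0.057). At an unadjusted p below 0.05 the term was positive for 5 genes and negative for 3, and DESeq2 called 4 positive and 2 negative. The shares of all genes by those 2 measures or in the single-library omissions were not counted, so these numbers have no background beside them.

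Ratios of related transcripts within a library, in TPM, do not depend on scaling between libraries. The ratio of CLB5 to CLB6 was 1.68, 1.60 and 1.66 in degron cells plus IAA, against 7.85, 6.40 and 7.10 minus IAA. The ratio of WHI5 to CLN3 was 0.368, 0.393 and 0.313 plus IAA, against 0.134, 0.179 and 0.152 minus IAA. Both ratios were apart in every library, and the ratio of WHI5 to CLN3 was not corrected for the GC content of WHI5. Their size depended on the length correction. In counts per base of coding length, CLB5 to CLB6 averaged 2.12 plus IAA and 8.80 minus IAA, against 1.64 and 7.12 in TPM. WHI5 to CLN3 averaged 0.476 and 0.213, against 0.358 and 0.155 in TPM. The ratio of CLN1 to CLN2 was 0.690, 0.827 and 0.740 in the triple mutant, against 0.445, 0.426 and 0.460 in wildtype at low OD. The ratio of CLB2 to CLB1 averaged 0.287 in humanized and 0.347 in wildtype cells at high OD, against 1.06 in humanized and 0.843 in wildtype cells at low OD. In degron cells that ratio was 0.479 plus IAA and 0.501 minus IAA, on average, with overlapping libraries. The coding sequences of CLN1 and CLN2 share no stretch longer than 17 bases, and their proteins are identical at 60.1% of aligned positions; for CLB1 and CLB2 the values are 17 bases and 62.5%, and for CLB5 and CLB6 15 bases and 49.9%.

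**Figure D5:**
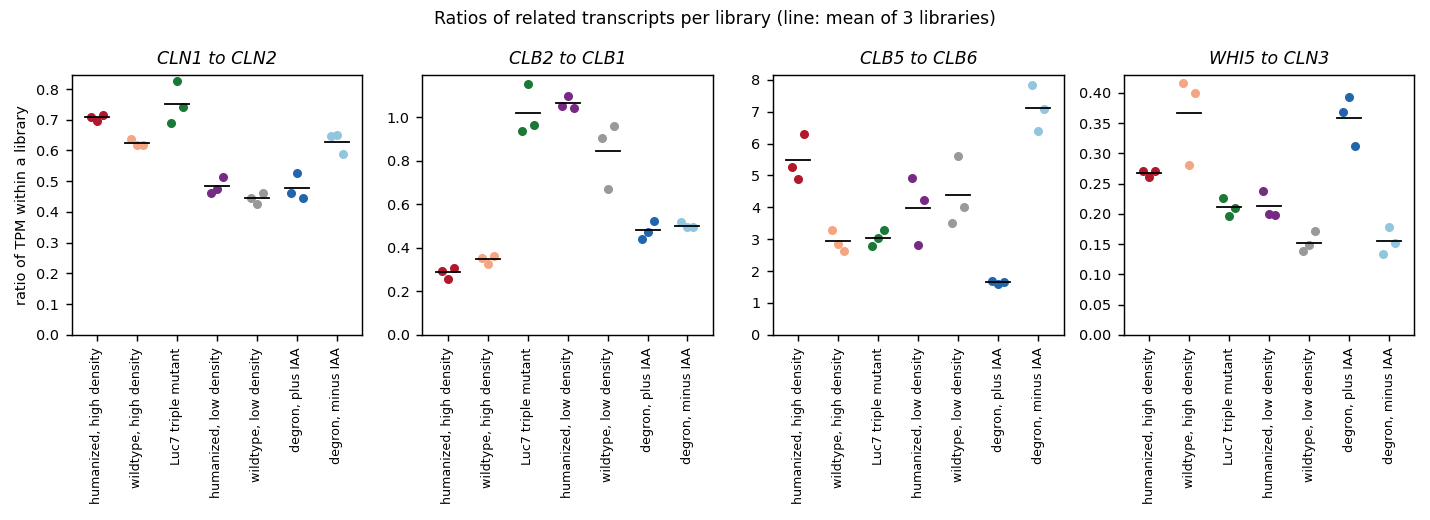
Ratios of TPM within each library (y axes, from 0) for 4 pairs of genes in the 7 groups, with a point per library and a line at the mean (n = 3). CLB5 to CLB6 is 1.60 to 1.68 in degron cells plus IAA, against 6.40 to 7.85 minus IAA, and CLB2 to CLB1 is below 0.4 at high OD only.

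Genes with the most similar pattern were found by the root mean square difference of log2 normalized CPM over the 7 group means, each gene centred on its own mean, among 5205 genes (5206 for CLB6) with at least 10 CPM. The closest to CLN3 were MID2, a cell wall sensor (difference 0.10), and POG1 (0.11), and the closest to WHI5 were APC1, a subunit of the anaphase-promoting complex (0.08), and the kinetochore gene SPC105 (0.08). CLN1 was closest to the mitochondrial helicase gene HMI1 (0.08), CLN2 to LOT6 (0.06), CLB5 to KAR5 (0.06), CLB2 to BNA2 (0.09) and SIC1 to the mitochondrial ribosomal protein gene MRPL10 (0.05). PCL1, CLB6 and CLB1 had no such near neighbour. Their closest genes were YNL208W (0.19), the spindle protein gene FIN1 (0.17) and the ammonium permease gene MEP2 (0.28). These are likenesses over 7 points, and 20 of the 30 genes found, 3 for each of the 10, were also found over the 21 single libraries.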

How the data were processed

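Per the labels' protocols, RNA was extracted with hot phenol, treated with DNase and made into poly-A selected libraries. Per the submitters' processing notes, reads were handled with cutadapt and Salmon 1.9 for the sacCer3 build. The sources used here do not give the strand, layout or index. The deposited tables give the authors' estimated counts and TPM from Salmon for 6571 spliced coding sequences, with sequence lengths per the file headers. Of these, 5895 matched R64 by systematic name.

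Estimated counts were rounded to whole numbers and tested with edgeR 4.0.16 (R 4.3.3): TMM, filterByExpr, quasi-likelihood test, Benjamini-Hochberg adjusted p below 0.05 over all genes. The 3 low-OD groups shared 1 fit, the high-OD pair and the degron pair had their own, and density and interaction used the 4 wildtype and humanized groups. ± after a log2 value is its standard error, from the log2 value over the root of F. The scripts were tested on simulated data. Alternatives were DESeq2 1.42.0 and its size factors, limma 3.58.1 on log2(TPM + 1), other filters and samples, the replicate block, an offset for length and GC content (splines with 4 degrees of freedom), and each library left out.

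The 10 genes and the lists were chosen with earlier results of these data known. From each list the called genes of 10 CPM or more with the largest changes, up to 4 per comparison, could be named, and for each of the 10 genes the 3 of most similar pattern; part of them is left out. The results of 1 further list, 1 motif and 1 other gene are not reported here.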

Additional observations from a re-analysis of the deposited data

Results flagged for a closer look

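For 3 of the 10 genes the effect of humanization differed between high and low OD by the edgeR interaction test. That test called the effect higher at high OD for 9.84% of all genes and lower for 8.02%. Each of the 3 calls was lost in some single-library omission, with adjusted p up to 0.0684 for PCL1, 0.0886 for CLB1 and 0.106 for SIC1. The estimate, high minus low OD, was 0.48 for PCL1, 0.385 for CLB1 and 0.317 for SIC1 on the log2 scale. PCL1 was at 0.12 at high OD and -0.36 at low OD, CLB1 at 0.46 and 0.08, and SIC1 at 0.34 and 0.03. The groups at high OD came from an earlier experiment and also differed in OD600, near 8 in humanized and near 5 in wildtype cells.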

How the results depend on the processing

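Among the 10 genes, 9 calls in degron cells remained 9 as each library was left out, and single-library omissions gave 6 to 8 calls for the triple mutant against wildtype, 3 to 6 against the humanized strain, 9 to 10 for density in wildtype, 5 to 7 for density in humanized cells, 2 to 4 for humanized against wildtype at high OD, 0 to 3 at low OD, and 0 to 5 for the interaction. Other settings moved 4 counts by more than 1.5 times. For humanized against wildtype at low OD, 1 call became 3 with DESeq2 and 0 with limma on TPM. For the triple mutant against humanized cells, 3 became 7 with only the groups compared. For humanized against wildtype at high OD, 5 became 3 with the replicate block. For the interaction, 3 became 6 with DESeq2, 1 with limma, 7 with all 7 groups in 1 fit and 6 with the offset for length and GC content. Smaller moves included 9 to 8 in degron cells with that offset, 7 to 6 for the triple mutant against wildtype with the block (CLB6), and 10 to 9 for density in wildtype with only the groups compared (SIC1). How many of all genes were called in these other fits was not counted, so these counts have no background beside them. The cause of the moves was not tested.

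Directions turned for estimates within their error, and in limma on TPM for CLN1 in degron cells (0.20, adjusted p = 0.047), CLN2 and CLB5 in the triple mutant against wildtype (0.046 and 0.10), WHI5 and CLN1 in humanized against wildtype at high OD (0.18 and 0.11) and PCL1 for density in humanized cells (0.13). As single libraries were left out, the log2 change ran from -0.043 to 0.17 for CLB5, -0.027 to 0.15 for CLN3 and -0.019 to 0.10 for CLN2 in humanized against wildtype at low OD, from -0.071 to 0.035 for CLB5 in the triple mutant against wildtype, from -0.18 to 0.029 for CLB5 in the triple mutant against humanized, from -0.11 to 0.037 for WHI5 and -0.084 to 0.013 for CLN1 in humanized against wildtype at high OD, and from -0.12 to 0.0022 for CLN1 in degron cells.

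Correlations of deviations between libraries with the same number ran from -0.44 to 0.62 and were above 0.1 for all 3 pairs in 0 comparisons, so the numbers were not taken to pair libraries. With the replicate block 1, 6, 3, 3, 9, 10, 7 and 2 of the 10 genes were called, in the order humanized against wildtype at low OD, triple mutant against wildtype, triple mutant against humanized, humanized against wildtype at high OD, degron, density in wildtype, density in humanized cells, and interaction. Calls over all genes with the block were not counted. In density in wildtype 4 of 6 libraries correlated best with their own number, elsewhere 0 to 2. Over 682 values from other settings, 632 kept direction and side of the threshold. Of 750 values with a library left out, 659 did so, 63 lost a call, 17 gained a call and 11 changed direction. Depth limits CLB6 most, with 88 to 449 reads per library.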
